A study of Homo sapiens with 7 samples.

Results

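The 10 protein-coding globin genes of the alpha and beta clusters (HBZ, HBM, HBA2, HBA1 and HBQ1 on chromosome 16; HBE1, HBG2, HBG1, HBD and HBB on chromosome 11) were followed in K562 cells, an established human line of chronic myelogenous leukemia with erythroid features. They were taken by gene name, a choice made with earlier results of these data known, and are 10 of the 57773 genes in the deposited count table. All cells carried LSD1, a histone demethylase encoded by KDM1A, with GFP fused to its C-terminus. Parental cells (3 libraries) had wtLSD1-GFP only. Edited lines 1 and 2 (2 libraries each) carried Y391K-LSD1-GFP on 2 alleles and kept wtLSD1-GFP on 1, and the design text calls Y391K a gain of function. The labels do not say whether a line is 1 clone, or whether libraries of 1 group were cultured separately, so p-values measure only the spread between these libraries, which may be technical.

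Haemoglobin is built from alpha-type and beta-type globin chains, each drawn from a gene cluster in which the genes lie in the order of their use during development. HBZ (zeta) and HBE1 (epsilon) are embryonic, HBG1 and HBG2 (the A-gamma and G-gamma chains) are fetal, HBA1 and HBA2 (alpha) serve from the fetus onwards, and HBB (beta) and HBD (delta) are adult. HBQ1 (theta) and HBM (mu) are alpha-type genes with no well established haemoglobin product. K562 cells are known for making embryonic and fetal haemoglobins and almost no beta globin. LSD1 is known as a corepressor used by gamma globin silencing complexes in erythroid cells, which is why the globins are a readout of interest for an LSD1 allele.

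Upstream sequences were found for HBM and HBD, 2 of the 10 members, in the RefSeq promoter table of GRCh38.p14, a later build than the GRCh37 of the files. Both genes had few or no reads, and their 250 bases before the transcript start are shown as the promoters of 2 low globins. HBM lies on the + strand at chr16:165728-165977 and HBD on the - strand at chr11:5234484-5234733. Capitals mark matches, on either strand, to CCAAT (the box of that name), CACCC (the kind of site bound by KLF factors), AGATAA (the GATA factor motif), TATAAA (the TATA box) or its variant ATAAAA, and each sequence runs 5′ to 3′ along the gene.
HBM: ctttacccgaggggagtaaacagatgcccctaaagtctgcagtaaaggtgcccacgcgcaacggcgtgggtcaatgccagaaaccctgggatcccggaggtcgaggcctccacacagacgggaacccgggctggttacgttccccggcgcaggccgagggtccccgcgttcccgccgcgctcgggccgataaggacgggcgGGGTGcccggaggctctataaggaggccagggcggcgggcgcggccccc
HBD: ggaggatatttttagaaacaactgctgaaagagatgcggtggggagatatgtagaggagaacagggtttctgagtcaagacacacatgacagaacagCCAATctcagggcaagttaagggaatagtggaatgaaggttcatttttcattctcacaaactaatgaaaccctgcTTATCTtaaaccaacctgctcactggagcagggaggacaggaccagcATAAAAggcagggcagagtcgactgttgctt

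The HBD window held CCAAT 153 to 149 bases before the start, AGATAA on the opposite strand (printed as TTATCT) 78 to 73 bases before it, and ATAAAA 31 to 26 bases before it. It held no CACCC and no TATAAA. The HBM window held only CACCC, on the opposite strand (printed as GGGTG), 49 to 45 bases before the start. Of 35116 promoters in the table, CCAAT was found in 32.0%, CACCC in 54.7%, AGATAA in 9.17%, TATAAA in 10.7% and ATAAAA in 14.8%. The GC content was 69.2% for HBM and 45.2% for HBD. These matches describe letters in the windows only.

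Total counts ran from 35841302 to 72577827 per library, and 3 counts, taken as the floor, correspond to 0.0412 to 0.0814 CPM (counts relative to the TMM-scaled library size). The floor covers counting error only, and the 95% intervals of fold changes, which come from the edgeR fit, include the spread between libraries. KDM1A stood at 237 to 348 CPM in parental and 245 to 320 CPM in edited libraries. Compared across genes (no independent replicates), log2 CPM of parental 3 had a Pearson correlation of 0.966 with parental 1 and 0.964 with parental 2, against 0.988 between the last pair. Results that rest on parental 3 are therefore given with and without it. The K562 markers GATA1, TFRC, BCR and ABL1 were all at 109 CPM or more in every library, and EPOR was at 10.3 to 19.0 CPM.

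The gamma globins were by far the most abundant globin transcripts. FPKM, the deposited value that corrects for transcript length and library depth, allows levels of different genes to be compared. HBG2 stood at 1843 ± 832 FPKM in parental cells (SD, n = 3) and HBG1 at 859.9 ± 384 FPKM. HBG2 exceeded HBG1 in every library, by 1.99 to 2.36 times in FPKM and by 2.33 to 3.20 times in counts. Next came HBZ at 95.1 ± 47.0 FPKM, HBA1 at 62.1 ± 37.7 FPKM, HBE1 at 40.6 ± 15.7 FPKM and HBA2 at 34.1 ± 20.5 FPKM (parental mean ± SD, n = 3). The ranges of these 4 genes over the parental libraries overlapped. Within each library, however, HBZ exceeded HBA2, and HBA1 exceeded HBA2 by 1.60 to 1.87 times in FPKM and by 1.62 to 2.74 times in counts. HBZ was also the highest of the 4 in each parental library. HBQ1 was lower at 4.40 ± 1.22 FPKM. HBD (0.385 ± 0.317 FPKM) and HBB (0.378 ± 0.168 FPKM) did not differ beyond their spread.

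HBM, the mu globin, was at the limit of the data. It had 0, 1 and 1 counts in the parental libraries and 0 in all 4 edited ones, so each library was below its floor of 3 counts, and it was not tested. The deposited FPKM of HBM was at most 1.35e-07 in any library. HBB had 4, 14 and 26 counts in the parental libraries, 31 and 5 in line 1 and 26 and 6 in line 2. HBD had 5, 62 and 60 counts in the parental libraries, 15 and 30 in those of line 1 and 24 and 19 in those of line 2. Both adult genes overlapped between all groups, and their folds rest on few reads.

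**Figure D1:**
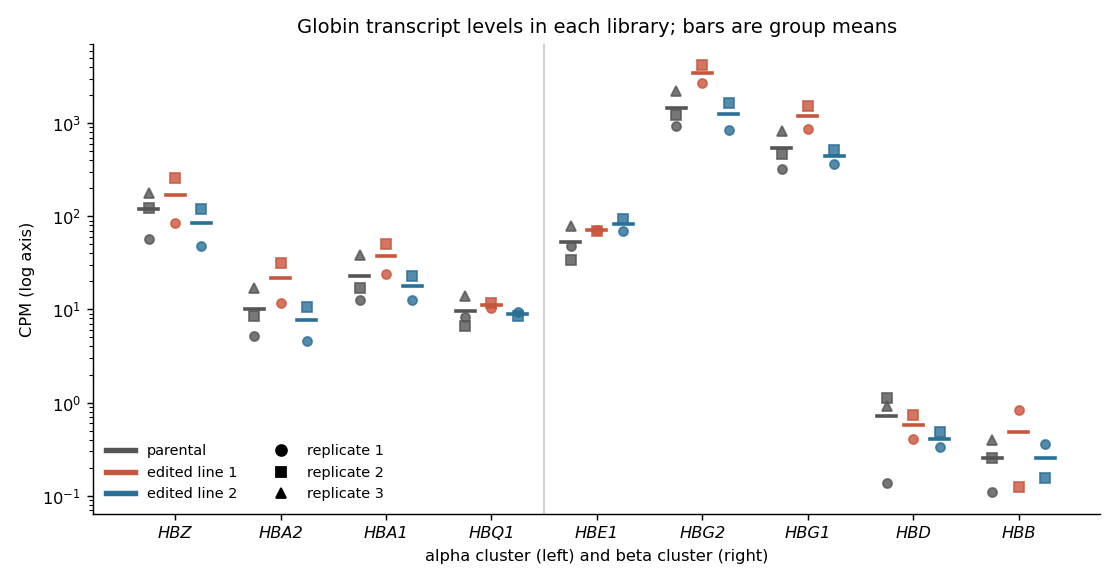
CPM of 9 globin genes (log axis) in each of 7 libraries, with colour for the group, shape for the replicate number and a bar for the group mean; HBM, with at most 1 count per library, is left out. The gamma globins HBG2 and HBG1 lie highest, and both line 1 libraries lie above all 3 parental ones for these genes, as for 15.2% of all genes tested.

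Some members are hard to tell apart by their reads. In the GENCODE 29 annotation the coding sequences of HBA1 and HBA2, 429 bases each, were identical, and 77.3% of the 150-base windows of the HBA1 transcript occurred unchanged in HBA2. HBG1 and HBG2 differed at 2 of 444 coding bases, and 26.2% of HBG1 windows occurred in HBG2. HBB and HBD shared 92.8% of their coding bases and HBE1 and HBG2 83.6%, with no shared 150-base window in either pair. How the counting treated reads that match both copies is not stated in the sources used here. The split within each near-identical pair is therefore uncertain, and the sum of each pair is reported beside its members. HBG2 and HBE1 also have annotated exons that overlap on the same strand, as do HBZ and HBM, so some of their reads may be uncounted or shared.

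The first question was whether cells with Y391K-LSD1 differed from parental cells in any globin transcript. None of the 9 tested globins passed when the 4 edited libraries were set against the 3 parental ones (edgeR quasi-likelihood test, Benjamini-Hochberg adjusted p under 0.05 over 18160 genes). This comparison called 0.182% of all genes tested (0.0165% higher and 0.165% lower in edited cells), 0 globins had an unadjusted p under 0.05 against 11.9% of all genes, and DESeq2's Wald test also called 0 globins. The fitted log2 fold changes were positive for 8 of 9 members, with a median of 0.50 against 0.00 over all genes tested. The members share libraries and are not independent of each other. Against parental cells, 8 were positive in line 1 (median 0.72), while in line 2 only 2 were positive and 7 negative (median -0.29). The median over all genes was -0.01 in each line. HBE1 was nearest to the threshold, with a log2 fold change of 0.52 (SE 0.27, 95% interval -0.08 to 1.13) and an adjusted p of 0.472. HBG2 followed at 0.68 (SE 0.50, 95% interval -0.46 to 1.82, adjusted p 0.626). In the authors' deposited table of this comparison, HBE1 had a log2 fold change of 0.53 (adjusted p 0.480) and HBG2 of 0.68 (adjusted p 0.606). Levels here are relative to all counts of bulk RNA, in which fewer cells of a type and less RNA per cell cannot be told apart.

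The means of the 2 edited lines stood on opposite sides of the parental mean for the gamma globins when all parental libraries were included. For HBG2, replicate 2 of line 2 (1637 CPM) was itself above the parental mean of 1457 CPM. Without parental 3 the log2 fold changes of line 2 turned positive, at 0.17 for HBG1 and 0.22 for HBG2. HBG2 was at 936, 1215 and 2222 CPM in parental 1 to 3, at 2666 and 4166 CPM in line 1, and at 850.3 and 1637 CPM in line 2. Both line 1 libraries therefore exceeded every parental library, while line 2 overlapped the parental range. HBG1 was at 321, 467 and 819 CPM in parental cells, at 868 and 1540 CPM in line 1, and at 366 and 511 CPM in line 2. It showed the same placement of the groups. Both line 1 libraries lay above all parental ones for 2 of the 9 tested globins and for 15.2% of all genes tested. The mean of line 1 was 2.34 times the parental mean for HBG2 and 2.25 times for HBG1.

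In line 1 against parental cells the log2 fold change was 1.23 (SE 0.39) for HBG2 (edgeR quasi-likelihood adjusted p 0.193). For HBG1 it was 1.17 (SE 0.37, adjusted p 0.201), and for the sum of the pair 1.21 (SE 0.38, adjusted p 0.191). No globin passed in this comparison, which called 1.75% of all genes tested (0.419% higher and 1.33% lower in line 1). HBG1 and HBG2 were the 2 members, of 9 tested, with an unadjusted p under 0.05, a mark that 13.4% of all genes reached. The call depended on 1 library and on the tool: without parental 3, the parental library with the highest gamma globin level, HBG1 passed at 1.63 (adjusted p 0.0186) and HBG2 at 1.69 (adjusted p 0.0224). Leaving out any other library gave no globin call in this comparison, with adjusted p-values for HBG2 up to 0.908. DESeq2's Wald test on all libraries called both, with adjusted p-values of 0.0167 for HBG1 and 0.0123 for HBG2. So did edgeR without the filter on low counts, and edgeR with the labels' replicate number as a block in the fit. These settings, and the fit without parental 3, also called more genes in total than the 318 of the main test (totals in the closing section).

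In line 2 against parental cells, HBG1 had a log2 fold change of -0.29 (SE 0.38, adjusted p 0.716) and HBG2 of -0.23 (SE 0.40, adjusted p 0.790) in edgeR's quasi-likelihood test. Both turned positive without parental 3, at 0.17 and 0.22. No member passed or had an unadjusted p under 0.05, in a comparison that called 5.82% of all genes tested (1.34% higher and 4.48% lower in line 2) and brought 21.5% of them under that unadjusted p. DESeq2's Wald test called 0 globins as well.

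Line 2 was also set against line 1 directly, in the fit with 3 groups, where the lines do not share a control. HBG1 had a log2 fold change of -1.46 (SE 0.42, 95% interval -2.42 to -0.50, adjusted p 0.0851) and HBG2 of -1.46 (SE 0.44, 95% interval -2.45 to -0.46, adjusted p 0.0961). Both line 2 libraries lay below both line 1 libraries for 5 of the 9 tested globins (HBG1, HBG2, HBA1, HBA2 and HBQ1) and for 26.4% of all genes tested. Neither passed the adjusted threshold in edgeR's quasi-likelihood test, which called 6.54% of all genes (2.33% higher and 4.21% lower in line 2). Members with an unadjusted p under 0.05 were HBG1, HBG2 and HBA2, against 18.4% of all genes. Without parental 3, which belongs to neither line but shares the fit, HBG1 passed at -1.47 (adjusted p 0.0131) and HBG2 at -1.47 (adjusted p 0.0181). DESeq2's Wald test called HBG1 (adjusted p 0.00202) and HBG2 (adjusted p 0.00272). Both were also called by edgeR without the filter on low counts and by edgeR with the replicate number as a block. Here too these settings and the fit without parental 3 called more genes in total than the main test, which called 1188.

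**Figure D2:**
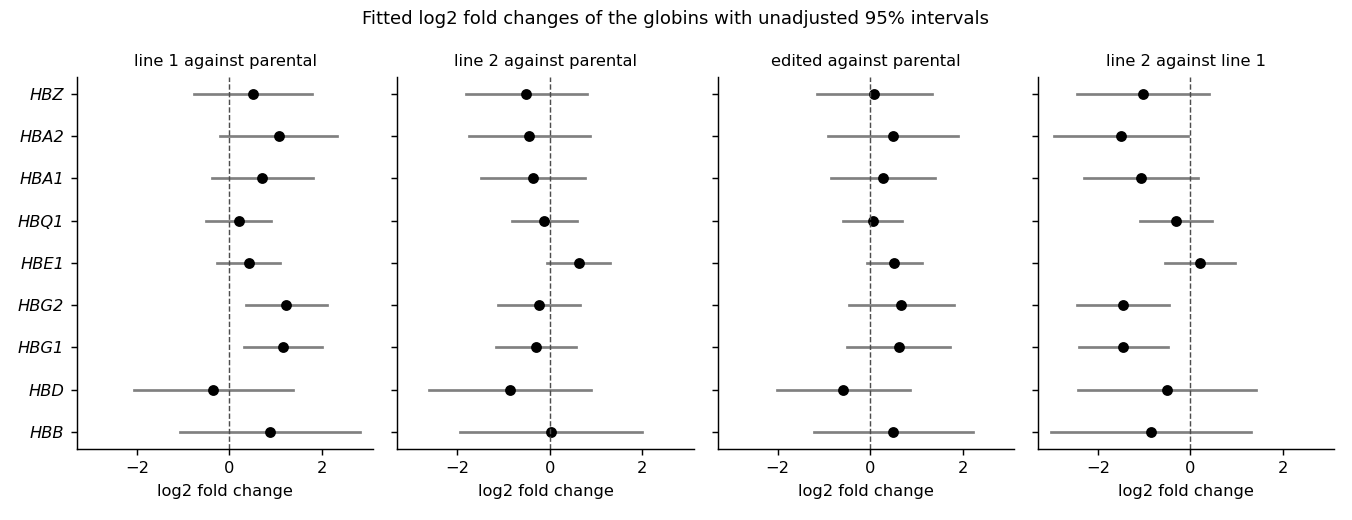
Fitted log2 fold changes (points) of 9 globins with unadjusted 95% intervals (lines) in the comparisons of each line with parental cells, of all edited with parental libraries, and of line 2 with line 1. The intervals of HBG1 and HBG2 exclude 0 for line 1 against parental and for line 2 against line 1, and that of HBA2 excludes 0 for line 2 against line 1; none of them passed after adjustment.

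The embryonic beta-type gene HBE1 varied least among the more abundant globins of its cluster. It stood at 47.5, 33.5 and 77.9 CPM in parental 1 to 3, at 72.0 and 69.5 CPM in line 1, and at 69.2 and 94.3 CPM in line 2. The edited libraries lay above parental 1 and 2, and 3 of the 4 lay below parental 3. Against parental cells the log2 fold change was 0.42 (SE 0.30, adjusted p 0.615) in line 1 and 0.62 (SE 0.30, adjusted p 0.273) in line 2, by edgeR's quasi-likelihood test. Without parental 3 the value for line 2 was 1.03 and passed (adjusted p 0.0150), and for line 1 it was 0.83 (adjusted p 0.0530). Without the filter on low counts the line 2 value of 0.63 also passed (adjusted p 0.00973). With the replicate number as a block HBE1 passed in both lines (edgeR adjusted p 0.0168 in line 1 and 0.00323 in line 2). Leaving out parental 3, dropping the filter and adding the block each called more genes in total in line 2 than the main test, which called 1057. In line 1 the block also called more genes in total than the main test. Line 2 and line 1 differed by 0.21 (SE 0.33, 95% interval -0.55 to 0.96).

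The alpha cluster had no call in any of the 4 comparisons in the main test. Without the filter on low counts edgeR called HBA1 and HBA2 in line 1 and, with HBZ, in line 2 against line 1. With the replicate number as a block edgeR called these genes too, and also HBZ in line 1 (adjusted p 0.00214). Dropping the filter and adding the block each called more genes in total in both comparisons. HBZ, the embryonic zeta chain, was at 56.9, 122 and 178 CPM in parental 1 to 3, at 85.0 and 255 CPM in line 1, and at 47.4 and 120 CPM in line 2. Its groups overlapped throughout, and replicates of one line differed by 2.54 to 3.00 times. HBA1 was at 12.7, 16.9 and 38.3 CPM in parental cells, at 23.8 and 50.6 CPM in line 1, and at 12.5 and 23.0 CPM in line 2. HBA2 was at 5.21, 8.40 and 17.1 CPM in parental cells, at 11.7 and 31.3 CPM in line 1, and at 4.56 and 10.6 CPM in line 2. For both alpha genes the line 1 and parental ranges overlapped, as did those of line 2. Their sum had a log2 fold change of 0.84 (SE 0.50, adjusted p 0.534) in line 1, of -0.38 (SE 0.52, adjusted p 0.724) in line 2 and of -1.22 (SE 0.57, adjusted p 0.299) between line 2 and line 1. HBQ1, the theta gene, was steadier, at 6.57 to 14.0 CPM in parental cells, 10.5 to 11.7 CPM in line 1 and 8.45 to 9.35 CPM in line 2.

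By FPKM, the gamma genes led the beta cluster in all 7 libraries, while the lead in the alpha cluster varied. HBG1 and HBG2 together held 97.9 to 98.8% of the summed FPKM of the beta cluster in parental and 97.1 to 99.3% in edited libraries, and HBE1 held 1.16 to 2.08% and 0.661 to 2.85%. HBB and HBD each stayed at or below 0.0307% of the cluster. In the alpha cluster, HBZ held 48.8 ± 7.07% (SD, n = 3) in parental and 42.1 ± 5.63% (SD, n = 4) in edited libraries, a difference of -6.69 percentage points. HBZ had the largest share of any single alpha-cluster gene in 6 libraries, and HBA1 in replicate 1 of line 1 (40.3% against 34.8%). The difference in the HBZ share had p = 0.286 in a two-sided exact permutation test over libraries, and p = 0.762 after adjustment over the 10 shares. HBA1 and HBA2 together held 48.7 ± 6.73% (SD, n = 3) and 55.3 ± 5.34% (SD, n = 4), with an exact permutation p = 0.286. With 4 libraries against 3 the smallest such p is 0.0571, so no share could have passed. By FPKM the pair exceeded HBZ in every library except parental 2 (40.9% against 56.9%). By counts, which are not corrected for transcript length, HBZ exceeded the pair in every library. In parental 1 to 3 HBZ had 2099, 6803 and 11722 counts, against 659, 1408 and 3648 for the pair. In replicate 1 of line 1 HBZ had 3156 counts and HBA1 883. The summed FPKM of the beta cluster was 13.4 to 23.9 times that of the alpha cluster.

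**Figure D3:**
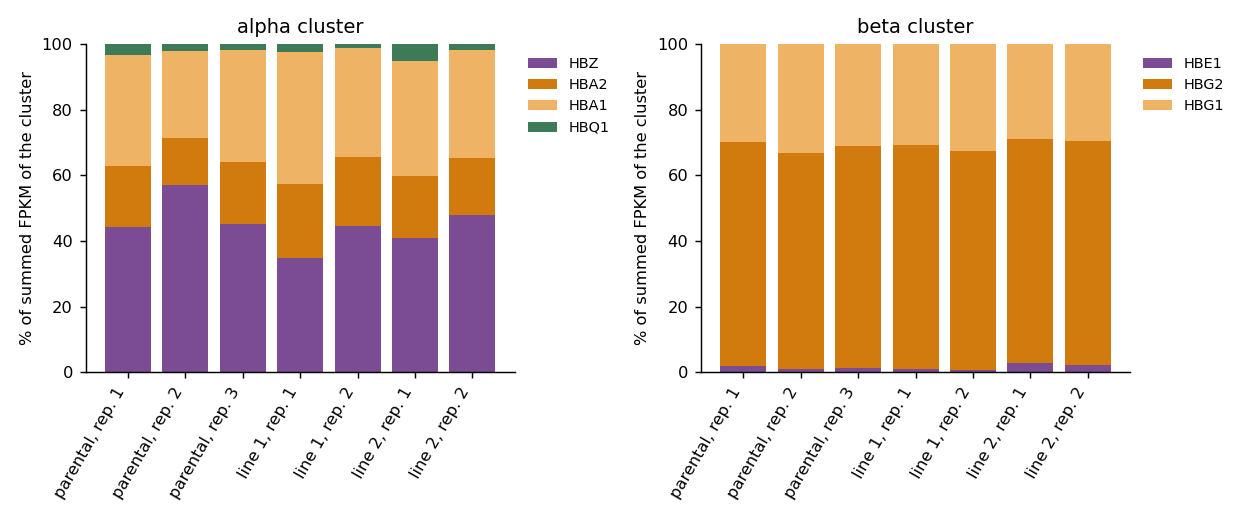
Percent of the summed FPKM of the alpha cluster (left) and the beta cluster (right) taken by each gene in each library; HBM, HBB and HBD are too low to be drawn. HBZ takes 34.8 to 56.9% of the alpha cluster and HBG1 with HBG2 97.1 to 99.3% of the beta cluster over the 7 libraries.

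The balance of fetal to embryonic beta-type transcripts was higher in line 1 than in line 2. The ratio of summed HBG1 and HBG2 FPKM to HBE1 FPKM was 47.0, 85.4 and 70.2 in the parental libraries, 91.7 and 150.2 in those of line 1, and 34.0 and 46.2 in those of line 2. Both line 1 libraries lay above all parental libraries and both line 2 libraries below them on this scale. From counts the ratio was 26.4, 50.2 and 39.0 in the parental libraries, 49.1 and 82.1 in those of line 1, and 17.6 and 22.8 in those of line 2, so line 1 then overlapped the parental range. With 2 libraries per line this ratio was not tested. The percent of all counts that fell on the 10 globins was 0.143, 0.191 and 0.306 in the parental libraries, 0.374 and 0.611 in those of line 1, and 0.142 and 0.240 in those of line 2.

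The globins also varied widely between libraries of the same group. The pooled within-group SD of log2 CPM was 0.94 for HBZ, 0.90 for HBA2, 0.76 for HBA1, 0.61 for HBG2, 0.59 for HBG1, 0.46 for HBE1 and 0.40 for HBQ1. The median over 9113 genes above 10 CPM was 0.19, and over all tested genes 0.30. HBZ, HBA1, HBA2, HBG1, HBG2 and HBD had their lowest value of each group in the same library, namely parental 1, replicate 1 of line 1 and replicate 1 of line 2. Replicate 2 exceeded replicate 1 in line 1 by 3.00 times for HBZ, 2.68 times for HBA2, 1.77 times for HBG1 and 1.56 times for HBG2. In line 2 the same ratios were 2.54, 2.33, 1.40 and 1.92. HBB, with at most 31 counts, was lower in replicate 2 than in replicate 1 of each line. HBE1 and HBQ1 did not share this order either, with ratios of 0.964 and 1.12 in line 1 and 1.36 and 0.904 in line 2.

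**Figure D4:**
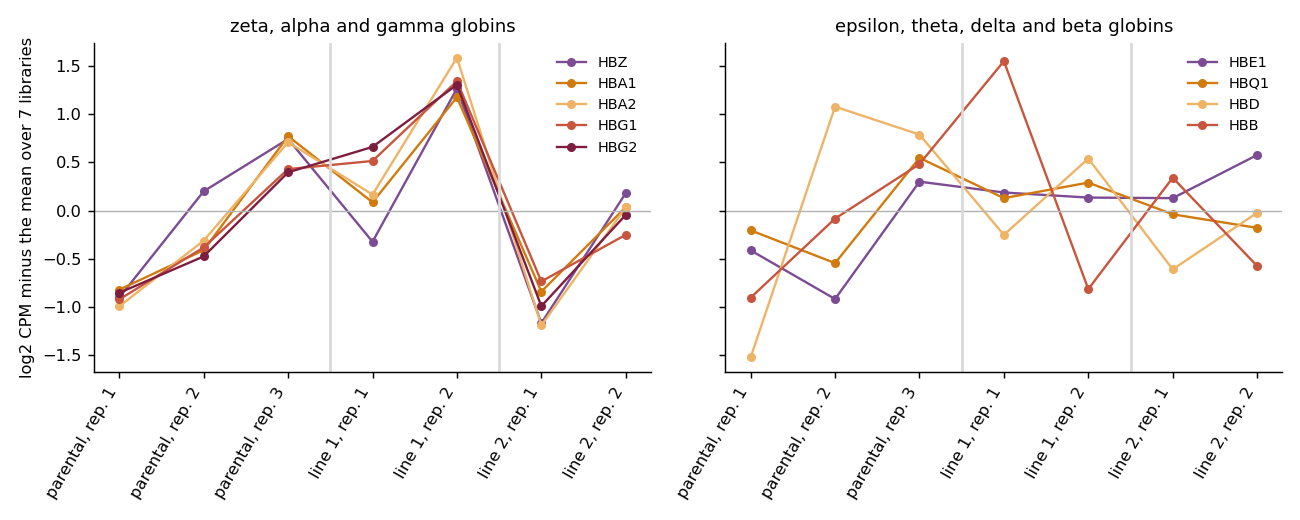
Log2 CPM minus its mean over the 7 libraries, for the zeta, alpha and gamma globins (left) and for HBE1, HBQ1, HBD and HBB (right); lines join the libraries only to guide the eye. On the left, parental 1 and replicate 1 of line 2 are lowest and replicate 2 of line 1 is highest for all 5 genes.

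Genes with the most similar profile were sought among 12196 genes with a mean of at least 2 CPM, by the root mean square difference of centred log2 CPM over the 7 libraries. For HBG2, whose values spanned 2.29 on that scale, HBG1 was at 0.14, HBA2 at 0.27, HBA1 at 0.27 and HBZ at 0.48. HBE1 was at 0.72 from HBG2, and 23.0% of the compared genes were closer. Outside the globins, the 5 nearest to HBG2 were TRPA1, an ion channel, at 0.22, SPTB, the erythroid beta spectrin, at 0.33, BBS9 at 0.33, SCARB1, a lipoprotein receptor, at 0.35, and ME1, a malic enzyme, at 0.35. SPTB was at 142, 130 and 204 CPM in parental 1 to 3, at 272 and 334 CPM in line 1 and at 134 and 189.5 CPM in line 2. For HBZ, spanning 2.43, HBA2 at 0.30 and HBA1 at 0.31 were nearer than any gene outside the globins, of which the first were ATP1B2, a sodium pump subunit, at 0.37 and HEMGN, the erythroid protein hemogen, at 0.40. SH2D3A followed at 0.42, CCDC124 at 0.43 and RHPN2 at 0.44.

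Factors that silence gamma globin were then counted, 26 genes that include BCL11A, ZBTB7A, MYB, SOX6, DNMT1, KDM1A and subunits of the NuRD complex. None of the 25 tested passed in edited against parental cells or in line 1, and 1 passed in line 2, where 5.82% of all genes did, with medians of -0.04, -0.04 and -0.08 on the log2 scale against 0.00, -0.01 and -0.01 over all genes. The gene that passed was DNMT1, the maintenance DNA methyltransferase, which averaged 556 ± 37.9 CPM (SD, n = 3) in parental cells against 360.4 ± 39.7 CPM (SD, n = 2) in line 2, and fell by 0.63 on the log2 scale (SE 0.15). Its adjusted p was 0.0462 in edgeR's quasi-likelihood test, and the call held only without parental 3, not when any of the other 6 libraries was left out (adjusted p 0.0293 to 0.192). BCL11A, the main silencer of HBG1 and HBG2 in adult erythroid cells, had 0 to 7 counts per library and was not tested. ZBTB7A (LRF), a second repressor of the gamma genes, was at 80.1 ± 6.55 CPM (SD, n = 3) in parental, 87.0 ± 9.02 CPM (SD, n = 2) in line 1 and 69.3 ± 0.457 CPM (SD, n = 2) in line 2. MYB was at 549 ± 162, 368 ± 16.5 and 423 ± 56.4 CPM in the same order. Neither ZBTB7A nor MYB passed in any comparison.

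Among 20 activating and looping factors, none passed in edited against parental cells or in line 1, and 3 passed in line 2 (1 higher and 2 lower), where 1.34% of all genes were called higher and 4.48% lower. ZFPM1, the GATA1 cofactor FOG1, rose by 1.24 on the log2 scale (SE 0.26, edgeR adjusted p 0.0270), with 36.2 ± 12.2 CPM (SD, n = 3) in parental cells against 85.6 ± 7.95 CPM (SD, n = 2) in line 2. TCF3, an E protein partner of TAL1, fell by 0.78 on the log2 scale (SE 0.16, edgeR adjusted p 0.0251), and LYL1, a relative of TAL1, fell by 0.73 (SE 0.15, edgeR adjusted p 0.0256). ZFPM1 and TCF3 lost the call without parental 1 or either line 2 library (adjusted p up to 0.126 and 0.132), and LYL1 without any of these or parental 2 (up to 0.235). The list's median log2 fold change was -0.05 in edited against parental cells, -0.12 in line 1 and 0.09 in line 2. GATA1, the master erythroid factor, was at 136 ± 7.71 CPM (SD, n = 3) in parental, 116 ± 8.70 CPM (SD, n = 2) in line 1 and 129 ± 5.76 CPM (SD, n = 2) in line 2, and did not pass. KLF1, an activator of adult beta globin, was at 74.0 ± 13.7, 61.7 ± 3.00 and 44.9 ± 7.38 CPM, and in line 2 had a log2 fold change of -0.72 (SE 0.18) with an edgeR adjusted p of 0.0554.

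Of 16 tested genes of haem synthesis and globin partners, none passed against parental cells in any comparison. ALAS2, the erythroid enzyme that starts haem synthesis, was at 71.4 ± 27.1 CPM (SD, n = 3) in parental, 52.3 ± 8.30 CPM (SD, n = 2) in line 1 and 62.3 ± 8.77 CPM (SD, n = 2) in line 2. AHSP, the chaperone of free alpha chains, had 1 to 36 counts and was not tested. TFRC, the transferrin receptor, was the most abundant of the list at 1431 ± 257 CPM (SD, n = 3) in parental libraries against 2044 ± 561 CPM (SD, n = 4) in edited libraries. BLVRA, a biliverdin reductase, was higher in line 2 than in line 1 by 0.99 on the log2 scale (SE 0.24, edgeR adjusted p 0.0434). It lost that call without parental 2 or any of the 4 edited libraries (adjusted p up to 0.249).

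No gene beside the clusters passed. Of 10 tested neighbours of the alpha cluster and 14 of the beta cluster, none passed in any comparison. NPRL3, whose introns hold the main alpha globin enhancers, was at 93.1 ± 19.6 CPM (SD, n = 3) in parental libraries against 92.2 ± 5.75 CPM (SD, n = 4) in edited libraries. The most abundant neighbours were LUC7L and AXIN1 beside the alpha cluster, and RRM1, at 239 ± 8.88 CPM (SD, n = 3) and 243 ± 15.3 CPM (SD, n = 4), and STIM1 beside the beta cluster. HBBP1, a transcribed pseudogene between HBD and HBG1, was at 2.09, 3.66 and 2.37 CPM in parental 1 to 3, at 4.39 and 6.55 CPM in line 1, and at 2.82 and 4.16 CPM in line 2. Its line 1 libraries lay above all parental ones, with a log2 fold change of 1.01 (SE 0.35, edgeR adjusted p 0.243). The same placement held for 5 of the 14 tested neighbours of the beta cluster, against 15.2% of all genes, the others being the olfactory receptor genes OR51B2, OR51B5, OR51I1 and OR51I2. OR51I1 was at 10.3, 8.74 and 8.35 CPM in the parental libraries and at 15.7 and 22.5 CPM in those of line 1, with a log2 fold change of 1.06 (SE 0.23, edgeR adjusted p 0.0582). OR51B5 had a log2 fold change of 0.68 (SE 0.21, edgeR adjusted p 0.174) and OR51B2 of 0.62 (SE 0.23, edgeR adjusted p 0.284). HBBP1 overlaps an annotated exon of HBD on the same strand, and OR51B5 overlaps annotated exons of HBG2 and HBE1 on the same strand. Some reads of HBBP1 and OR51B5 may therefore be shared with these globins. Of the globin-fold genes elsewhere in the genome, MB (myoglobin) had 0 or 1 count, CYGB (cytoglobin) 0 to 11 and NGB (neuroglobin) 0 counts in every library, and none was tested.

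Of 16 tested erythroid and K562 identity genes, 1 rose and 2 fell in line 1, and 1 rose and 1 fell in line 2, against parental cells. Of all genes tested, 0.419% rose and 1.33% fell in line 1, and 1.34% rose and 4.48% fell in line 2. CD36, a fatty acid transporter of early erythroid cells, had 1 or 2 counts in each parental library, 139 and 259 in line 1 and 21 and 11 in line 2. Its edgeR adjusted p was 4.94e-04 in line 1 and 0.0150 in line 2, the latter lost without parental 2 or either line 2 library (up to 0.0831). SLC4A1, the band 3 anion exchanger, fell by 3.46 on the log2 scale in line 1 (SE 0.66, edgeR adjusted p 0.0404), and KEL, the Kell blood group protein, fell by 0.93 (SE 0.18, adjusted p 0.0437). The SLC4A1 call was lost without parental 2 or any edited library (up to 0.281), and the KEL call without any library other than parental 3 (up to 0.244). TMOD1, a tropomodulin of the red cell skeleton, fell by 1.81 in line 2 (SE 0.21, edgeR adjusted p 0.00194), in each case with one library left out too.

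Markers of other cell types were low apart from PTPRC, LYZ, EPCAM and VIM. The 8 lymphoid markers summed to 164 to 387 CPM in parental, 137 in both line 1 libraries and 58.8 to 75.6 CPM in line 2, nearly all of it PTPRC (CD45), which fell in line 2 by 2.19 on the log2 scale (SE 0.34, edgeR adjusted p 0.00679; 0.0916 without line 2 replicate 2). MS4A1 was at 0 in 6 of 7 libraries and CD2 in 5. The 9 monocyte and granulocyte markers summed to 31.6 to 43.1 CPM in parental, 5.49 to 8.13 CPM in line 1 and 24.4 to 30.0 CPM in line 2, with S100A8 at 0 in every library and MPO in 6 of 7. In line 1 LYZ fell by 2.48 (SE 0.23, edgeR adjusted p 0.00173) and ITGAM by 2.62 (SE 0.44, adjusted p 0.0246), the latter lost without parental 1, parental 2 or either line 1 library (up to 0.200). The 8 stromal and epithelial markers summed to 852 to 887 CPM in parental, 801 to 849.7 CPM in line 1 and 504 to 558 CPM in line 2. VIM, which made up most of it, fell by 0.90 in line 2 (SE 0.13, edgeR adjusted p 0.00561), a call lost without either line 2 library (0.0545 and 0.0563). The part of these markers in the globin levels was not tested.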

How the data were processed

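Poly-A RNA of 7 K562 libraries was sequenced from stranded libraries with 150-cycle paired reads, per the labels' protocols. The submitters' processing notes name the builds GRCh37 and hg19 and the tools STAR 2.7.3a, HTSeq 0.11.2, Cufflinks 2.2.1, Bowtie2 2.5.1, cutadapt 2.5 and DESeq2, with no role or order. Raw counts of reads for each gene were deposited by the authors. FPKM values were deposited in a second table, in which 114 repeated identifiers were summed. The authors' comparison table lists, per the file headers, adjusted and unadjusted p-values beside each log2 fold change and its standard error, edited against parental.

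Tests on the counts used edgeR 4.0.16 under R 4.3.3 (filterByExpr, 18160 genes kept, TMM, glmQLFTest, Benjamini-Hochberg adjustment at 0.05 over all genes). Edited against parental cells had 2 groups in the fit, and the line comparisons had 3 groups. Line 1 and line 2 share their parental libraries. Each near-identical pair was also summed before the fit. Shares of FPKM were compared by exact permutation over libraries with scipy 1.17.1. The steps were tested on simulated counts. The main fits did not pair libraries by the labels' replicate numbers. The members, gene lists and tests were chosen with earlier results of these data known. List genes named are those that passed (up to 6 per list and comparison), else the 2 most abundant, plus GATA1, KLF1, BCL11A, ZBTB7A, MYB, KDM1A, ALAS2 and AHSP always. BGLT3, HBAP1 and ITFG3 were not matched to 1 identifier. HBBP1, SPTB, the OR51 genes and the empty markers were named after their values were seen. Coding sequences and exon overlaps came from GENCODE 29 on GRCh38 and promoters from RefSeq on GRCh38.p14.

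The alternatives tried were TMM without the globins, upper quartile scaling, DESeq2 1.42.0 for its size factors and for its Wald test, a minimum mean of 2 CPM, no filter, limma-voom, limma 3.58.1 on log2(FPKM + 1) and log2(FPKM + 0.1), a 3-group mean of the lines, the replicate number as a block, counts in place of FPKM for shares, and each library left out in turn.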

Additional observations from a re-analysis of the deposited data

Results flagged for a closer look

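Among the 4 edited libraries, HBE1 in replicate 2 of line 2, at 94.3 CPM, stood apart from the other 3, which lay between 69.2 and 72.0 CPM. Its gap to the nearest library was 0.887 of the group's range, above Dixon's 95% critical value for 4 libraries. It was 1 of 11 globin values or sums examined this way, and no other stood out.

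In edgeR's quasi-likelihood test of line 2 against line 1, 0 of 9 globins and 9 of 111 tested genes of the other lists (8.11%) passed, where 6.54% of all genes did. The log2 differences were -0.68 for DNMT1, 1.37 for ZFPM1, -0.74 for TCF3 and 0.99 for BLVRA. They were -4.14 for CD36, 4.89 for SLC4A1, -1.18 for TMOD1, 2.25 for LYZ and -0.86 for VIM. Adjusted p-values were 0.00113 for LYZ to 0.0435 for DNMT1. With one library left out in turn, CD36 and LYZ kept the call in every case and SLC4A1 in 6 of 7, DNMT1 and TCF3 in 1 of 7 (without parental 3), BLVRA in 2, and ZFPM1, TMOD1 and VIM in 3.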

How the results depend on the processing

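Of 751 globin log2 fold changes recomputed under the alternatives, 655 kept their direction and side of the threshold, 43 newly passed and 53 changed sign, none of them past the threshold before. Globins called in line 1, line 2 and line 2 against line 1 were 4, 1 and 5 without the filter, 2, 0 and 2 by DESeq2's Wald test, and 0 in each under DESeq2 size factors, upper quartile scaling, TMM without the globins, a mean of at least 2 CPM, limma-voom and limma on FPKM, and no alternative gave one in edited against parental cells. All genes called in edited against parental, line 1, line 2 and line 2 against line 1 were 234, 1167, 2477 and 2158 without the filter, and 427, 857, 1942 and 1851 by DESeq2. Limma gave 8, 23, 196 and 209 on log2(FPKM + 1), and 12, 53, 258 and 272 on log2(FPKM + 0.1). Limma-voom called 202 in line 1, and the 3-group mean of the lines 619 in edited against parental. The cause was not tested.

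The replicate number used as a block rests on numbers with weak same-number correlations of deviations. These were 0.0508, 0.223 and 0.297 for number 1 and 0.0863, -0.0924 and 0.297 for number 2. The values of 0.297 are 1 quantity, because the 2 libraries of a line deviate from their mean by equal and opposite amounts. Whether equal numbers mark a pairing is not settled by these values. Under this block 6, 1 and 5 globins were called in line 1, line 2 and line 2 against line 1, and 7, 2272, 3887 and 3568 of all genes in the 4 comparisons. HBG1, HBG2, HBA1, HBA2 and HBZ were called in line 1 and in line 2 against line 1, and HBE1 in each line against parental cells. Log2 fold changes that turned positive under the block were HBD at 0.0066 (edited) and 0.10 (line 1) and, in line 2, HBA1 at 0.21, HBA2 at 0.082, HBG1 at 0.16, HBG2 at 0.15, HBQ1 at 0.27, and the sums at 0.17 (HBA1 and HBA2) and 0.15 (HBG1 and HBG2).

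Sign also changed for HBZ in edited cells by limma-voom (-0.074), for HBD on log2(FPKM + 1) at 0.032 (edited), 0.013 (line 1), 0.051 (line 2) and 0.037 (line 2 against line 1), for HBD on log2(FPKM + 0.1) at 0.23, 0.15, 0.30 and 0.15 in that order, and for HBQ1 in line 2 at 0.060 and 0.076.

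With each library left out in turn, all genes called ranged from 2 to 32 in edited against parental, 44 to 931 in line 1, 259 to 1848 in line 2 and 327 to 2344 in line 2 against line 1, and globins called from 0 to 2, 0 to 1 and 0 to 2 in the last 3, each highest value without parental 3. Log2 fold changes in edited against parental ranged from -0.20 to 0.91 for HBA1, -0.19 to 1.11 for HBA2, -0.20 to 0.98 for their sum, -0.16 to 0.45 for HBQ1, -0.50 to 0.52 for HBZ and -0.24 to 1.00 for HBB. In line 1 they ranged from -0.85 to 0.092 for HBD, -0.011 to 0.60 for HBQ1, -1.05 to 1.68 for HBB and -0.49 to 1.10 for HBZ. In line 2 they ranged from -0.74 to 0.51 for HBB, -0.86 to 0.27 for HBA1, -1.18 to 0.15 for HBA2, -0.95 to 0.24 for their sum, -0.56 to 0.17 for HBG1, -0.79 to 0.22 for HBG2, -0.72 to 0.21 for their sum, -0.33 to 0.28 for HBQ1 and -1.34 to 0.019 for HBZ. Between the lines they ranged from -1.66 to 1.07 for HBB, -0.88 to 0.0045 for HBD and -0.035 to 0.42 for HBE1. The edited minus parental share of the beta cluster ranged from -0.47 to 0.27 percentage points for HBG1 with HBG2 and from -0.26 to 0.47 for HBE1, and no share changed sign with counts in place of FPKM. A lone library of a line is assumed to vary like the other groups.

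Of 371 recomputed values of the named list genes, 261 kept their call and 110 lost it. Depth limits HBM, HBB, HBD, BCL11A and AHSP, and 2 libraries per line limit every comparison of the lines.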
